A study of Mus musculus with 6 samples.

Results

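A set of 9 genes of the red cell membrane skeleton was followed in bone marrow of anemic mice given erythropoietin: Sptb, Ank1, Slc4a1, Epb42, Epb41, Add1, Add2, Dmtn and Tmod1. They were chosen by name, as the spectrin, ankyrin, band 3, protein 4.2, protein 4.1, adducin, dematin and tropomodulin genes whose accession on the array was matched through RefSeq. The 9 genes were read by 19 of the 41157 probes with a value on every array, and all 9 were among the 14853 genes tested. Under the membrane of a red cell, spectrin tetramers form a hexagonal net. The net is held to the lipid bilayer at ankyrin complexes built on band 3 and protein 4.2, and at junctional complexes where short actin filaments meet protein 4.1, adducin, dematin and tropomodulin. Erythroblasts in the marrow make these proteins and assemble the net before the cell enters the blood, and inherited loss of spectrin, ankyrin, band 3 or protein 4.2 gives spherocytic anemia.

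Femoral marrow cells of ISAM mice (genotype Epo-/-::3.3K-Epo3'-Tg458, mixed strain background, male, 10 weeks old) were profiled on 6 one-colour Agilent arrays, 1 per sample. Every sample, controls included, lacked the endogenous Epo gene and carried the Epo transgene, which serves the animal before birth but leaves the adult short of erythropoietin. The 3 treated samples were taken 6 h after recombinant human erythropoietin (rHuEPO, 3000 U/kg into the peritoneal cavity). As controls there were 1 untreated sample and 2 samples collected 6 h after phosphate-buffered saline (PBS). No label ties a sample to its own animal, so the p-values describe the scatter of these samples alone, which may be technical, and 6 arrays limit the precision.

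The arrays came from 2 slides, each scanned in 1 session. The first carried untreated replicate 1 with rHuEPO replicate 1, and the remaining 4 were on the second. Among the controls, slide 1 against slide 2 is thus also untreated against PBS, and the 2 cannot be told apart. A difference within slide 1 sets 1 rHuEPO array against 1 untreated array. The share of gene spots well above background was 46.2% to 46.6% in the rHuEPO arm and 48.6% to 50.5% in the control arm. The median signal of negative control spots was 4.73 to 5.51 in the rHuEPO arm and 3.74 to 4.03 in the control arm. Of 12 erythroid marker genes 11 were matched to probes, and all 11 were well above background on all 6 arrays, as the marrow label requires. Correlations between arrays lay between 0.9636 and 0.9914 across genes.

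The letters in front of the genes are shown for 3 members, Sptb and Add2, whose differences were the largest, and Epb42, the protein 4.2 gene, whose difference was small. Each window runs from 250 bases before to 50 bases after the RefSeq gene start (GRCm38.p6), 5′ to 3′ on the gene's own strand. Capitals mark matches, on either strand, to a GATA motif (AGATAA as one form, TGATAA as another, and likewise AGATAG with its relative TGATAG), which erythroid GATA factors can bind, and to the letters CACCC, the core of the site of the erythroid factor KLF1.
Sptb, chr12:76710498-76710797, minus strand: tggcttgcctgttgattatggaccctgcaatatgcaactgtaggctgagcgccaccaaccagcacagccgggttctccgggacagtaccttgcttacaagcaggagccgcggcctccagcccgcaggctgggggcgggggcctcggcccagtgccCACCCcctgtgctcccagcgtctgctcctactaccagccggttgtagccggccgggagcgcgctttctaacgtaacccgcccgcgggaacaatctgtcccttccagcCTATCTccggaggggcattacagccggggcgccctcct
Add2, chr6:86028431-86028730, plus strand: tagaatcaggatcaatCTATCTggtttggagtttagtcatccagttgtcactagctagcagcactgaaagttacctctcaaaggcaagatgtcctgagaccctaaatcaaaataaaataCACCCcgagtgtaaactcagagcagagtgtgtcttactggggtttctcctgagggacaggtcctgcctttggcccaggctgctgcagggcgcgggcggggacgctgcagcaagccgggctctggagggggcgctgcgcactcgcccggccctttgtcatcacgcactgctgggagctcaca
Epb42, chr2:121036828-121037127, minus strand: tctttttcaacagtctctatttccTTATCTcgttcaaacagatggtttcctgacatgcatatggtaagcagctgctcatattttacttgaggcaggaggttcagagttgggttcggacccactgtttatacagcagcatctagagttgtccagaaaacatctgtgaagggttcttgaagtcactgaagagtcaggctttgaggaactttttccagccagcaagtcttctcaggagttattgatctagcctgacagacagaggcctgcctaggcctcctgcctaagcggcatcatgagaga
The windows of Sptb and Add2 each held 1 GATA match and 1 CACCC match, and that of Epb42 held 1 GATA match and 0 CACCC matches. No marked matches overlap. Tmod1 had 0 GATA and 3 CACCC matches in its window, and Add1 had 0 of either. Of the 3 windows of Epb41, 2 had 1 GATA match each. The STAT motif TTCNNNGAA was in 0 of the 8 windows of the 6 members in the table. Over all 32851 windows in the table, 29.76% held a GATA match, 57.52% a CACCC match and 8.3% the STAT motif, so the GATA and CACCC matches are common letters. The table was searched by symbol for Ank1, Slc4a1 and Dmtn as well, without a match.

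Values below are log2 signals relative to the array's 75th percentile, and a difference is the rHuEPO mean minus the control mean, with the standard error (SE) from limma. Each gene is given by its brightest probe, and levels are compared between arrays for 1 probe, never between probes.

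By the brightest probe, beta-spectrin (Sptb) and beta-adducin (Add2) had the largest differences. The other 7 genes lay between -0.14 and 0.36, though the 4 dimmer Ank1 probes differed by 0.58 to 0.74. Against all 3 control arrays the difference was 1.24 ± 0.21 (SE, 3 against 3 arrays) for Sptb, a 2.36-fold level, and 0.94 ± 0.22 for Add2, a 1.92-fold level. In these 2 of the 9 genes the lowest rHuEPO reading exceeded the highest control reading, as it did in 5.07% of all genes tested. The opposite order was found in 0 of the 9 genes and in 5.33% of all genes. Of the members 0 passed the genome-wide test (limma, Benjamini-Hochberg adjustment over 14853 genes, threshold 0.05), which called 0.0673% of them, and 2 members had an unadjusted p under 0.05, both higher after rHuEPO. Of all genes 4.97% had one in either direction and 2.48% in the higher direction. The marrow was profiled as a whole, so more cells of a type and more RNA per cell cannot be told apart.

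**Figure D1:**
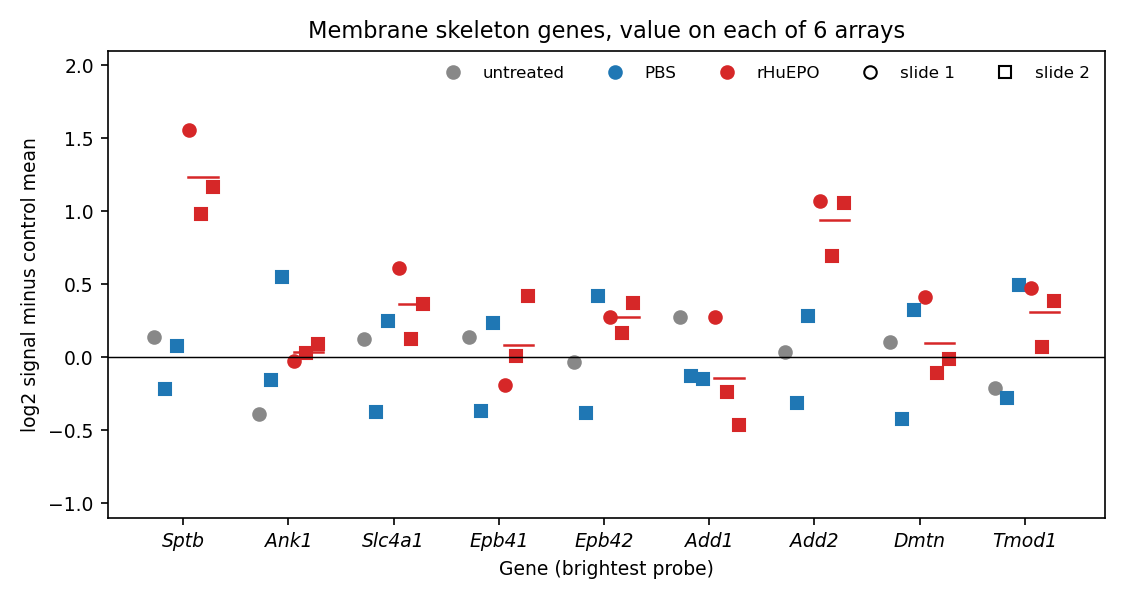
Log2 signal of the brightest probe of each gene (x axis) on each of 6 arrays, after subtraction of the mean of the 3 control arrays (y axis, log2). Colours give the group, circles slide 1 and squares slide 2, and the red line the rHuEPO mean; the 3 rHuEPO arrays clear all control arrays in Sptb and Add2 and overlap them in the other 7 genes.

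Sptb encodes beta-spectrin, the chain that binds ankyrin, protein 4.1 and actin. Its brightest probe (A_51_P452371) read 1.57 in the untreated sample, 1.21 and 1.51 in the PBS samples, and 2.99, 2.41 and 2.60 in the rHuEPO samples. The lowest treated array thus lay clear of the highest control. The adjusted p by limma was 0.255, and 0.107 with slide as a block, a fit in which 0.0606% of genes were called. The difference was 1.42 within slide 1 and 1.14 within slide 2. By p it ranked 34 and by difference 70 among the 14853 genes.

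The 3 Sptb probes did not move together. The second (A_52_P672338) read 0.89, 0.31 and 1.02 in the untreated and PBS samples and 2.29, 1.45 and 1.61 after rHuEPO, a difference of 1.05 ± 0.29 with the groups apart again (limma adjusted p = 0.851 over 19590 probes). The third and dimmest (A_51_P489138) read -2.30, -2.32 and -2.45 in the controls and -3.90, -2.03 and -2.96 after rHuEPO, a difference of -0.61 ± 0.43 (limma adjusted p = 1.00). Its lowest reading, on rHuEPO replicate 1, was not well above background, so the size of that difference is uncertain. Without that array the third probe's difference was -0.14, and with any other array left out it lay between -1.07 and -0.58. The highest and lowest probe differences of Sptb lay 1.85 apart, rank 1 among 3798 genes with more than 1 tested probe (median 0.138), but 1.22 apart without rHuEPO replicate 1, rank 53 (median 0.245). Probes with differences of both signs, as in Sptb, were found in 30% of these genes, and the Sptb spread was singled out after its values were seen. Which part of the transcript each probe reads was not analysed here.

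Ank1, ankyrin-1, links beta-spectrin to band 3. By its brightest probe it did not differ detectably, at 4.30 in the untreated sample, 4.53 and 5.24 in the PBS samples, and 4.66, 4.72 and 4.78 after rHuEPO. The difference was 0.034 ± 0.26 (limma adjusted p = 1.00), and PBS replicate 2 was above all treated arrays. The 4 dimmer Ank1 probes all differed upwards, by 0.71 ± 0.25, 0.58 ± 0.31, 0.74 ± 0.36 and 0.64 ± 0.39 in order of brightness (limma adjusted p = 1.00 for each). Without PBS replicate 1 the 3 dimmest stood at 0.32, 0.50 and 0.30, without rHuEPO replicate 1 at 0.35, 0.43 and 0.33, and with normexp background correction the fourth probe was at 0.15 and the fifth at -0.096. Only the first of these 4 (A_52_P562817) separated the groups, with 3.15, 3.14 and 3.92 in the controls against 3.98, 4.08 and 4.27. The other 3 were higher on slide 1 in both arms, by 0.55 to 0.84 in the controls and 0.70 to 0.94 in the rHuEPO samples. Within slides their differences were 0.68, 0.83 and 0.71 in slide 1 and 0.53, 0.70 and 0.61 in slide 2. The spread of 0.71 among the 5 Ank1 probes ranked 84 among the 3798 genes. By the mean of its tested probes Ank1 differed by 0.54, with the groups apart upwards, and was not called.

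**Figure D2:**
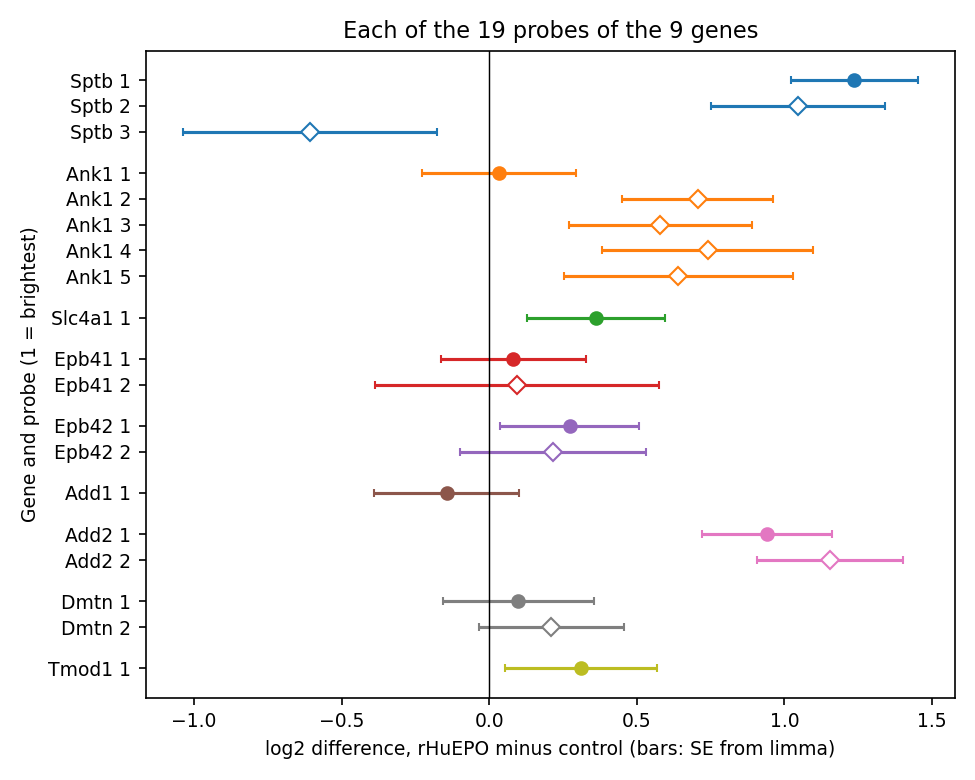
Log2 difference, rHuEPO minus control, of each of the 19 probes (x axis) with its SE from limma, listed by gene and by brightness (y axis); filled points are the brightest probe of a gene. The 2 Add2 probes and 2 of the 3 Sptb probes lie near 1, the third Sptb probe lies at -0.61, and 4 of 5 Ank1 probes lie between 0.58 and 0.74 while the brightest lies at 0.034.

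Slc4a1 encodes band 3, the chloride and bicarbonate exchanger that anchors the ankyrin complex. It read 7.20 in the untreated sample, 6.70 and 7.33 in the PBS samples, and 7.69, 7.20 and 7.44 after rHuEPO. The groups overlapped, and the difference was 0.36 ± 0.23 (limma adjusted p = 1.00), or 0.17 without PBS replicate 1 and 0.24 without rHuEPO replicate 1. Epb42, protein 4.2, which ties band 3 to ankyrin, read 0.78 in the untreated sample, 0.43 and 1.23 in the PBS samples, and 1.09, 0.98 and 1.18 after rHuEPO. PBS replicate 2 again exceeded every treated array, and the difference was 0.27 ± 0.23, with 0.22 ± 0.32 by its second probe (limma adjusted p = 1.00 for both). By the first probe it was 0.080 without PBS replicate 1 and 0.48 without PBS replicate 2.

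Among the junctional genes, Add2 stood 0.94 higher after rHuEPO, and Add1 stood at -0.14, which became 0.35 with normexp background correction. Add2, beta-adducin, caps actin filaments and recruits spectrin to them. It read 1.11 in the untreated sample, 0.76 and 1.36 in the PBS samples, and 2.15, 1.77 and 2.13 after rHuEPO, with no overlap. Its adjusted p by limma was 0.540, or 0.285 when slides were blocked, and the difference was 1.04 within slide 1 and 0.89 within slide 2. Its second probe (A_51_P452854) read -1.58, -1.75 and -1.07 in the controls and -0.29, -0.60 and -0.04 after rHuEPO, again without overlap, a difference of 1.15 ± 0.25 (limma adjusted p = 0.602 over 19590 probes). Add1, alpha-adducin, its partner in the adducin tetramer and made in most tissues, read 3.29 in the untreated sample, 2.89 and 2.87 in the PBS samples, and 3.29, 2.78 and 2.55 after rHuEPO. The highest value was shared by the 2 arrays of slide 1, and the difference was -0.14 ± 0.24 (limma adjusted p = 1.00). Whether Add1 and Add2 differ from each other in response was not tested, since the members were taken up with their values known.

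Epb41, protein 4.1, stabilises the contact of spectrin with actin. It read 2.87 in the untreated sample, 2.36 and 2.96 in the PBS samples, and 2.54, 2.74 and 3.15 after rHuEPO, with overlap and a difference of 0.081 ± 0.24 (limma adjusted p = 1.00). Its second probe (A_52_P522210) differed more between the slides than between the arms. That probe read 0.62 and 0.82 on slide 1, untreated and rHuEPO, and between -0.71 and -0.45 on the 4 arrays of slide 2, with a treatment difference of 0.093 ± 0.48. Slide 1 exceeded slide 2 by 1.21 in the controls, which is also untreated against PBS. In the rHuEPO samples it did so by 1.36, with 1 array on slide 1.

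Dmtn, dematin, bundles actin and binds spectrin. It read 3.63 in the untreated sample, 3.1 and 3.85 in the PBS samples, and 3.94, 3.42 and 3.51 after rHuEPO. Its difference was 0.099 ± 0.25, with 0.21 ± 0.25 by the second probe. Tmod1, tropomodulin-1, caps the pointed ends of the short actin filaments. It read 0.15 in the untreated sample, 0.08 and 0.86 in the PBS samples, and 0.84, 0.43 and 0.75 after rHuEPO, a difference of 0.31 ± 0.26 that ran from 0.17 without PBS replicate 1 to 0.56 without PBS replicate 2. Both genes overlapped between the groups, with a limma adjusted p of 1.00 each.

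By the brightest probe 8 of the 9 differences were above 0, against 47.7% of all genes, and their median was 0.27 where the median over all genes was -0.013. Of the 19 probes 17 were above 0 (share of all probes not counted). Upward separation of the groups was seen in 5, against 5.04% of all tested probes. The 5 belong to 3 genes (2 each in Sptb and Add2 and 1 in Ank1), and probes of 1 gene are not independent. With no filter on dim probes 25.6% of all genes were apart upwards and 3.72% downwards, but all 19 member probes passed the filter. The members' median was 0.36 within slide 1 and 0.25 within slide 2. It was 0.080 without PBS replicate 1 and 0.48 without PBS replicate 2, and with array weights it was -0.0032.

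In 8 of the 9 genes, and 17 of the 19 probes, PBS replicate 2 was above PBS replicate 1, with a median difference of 0.63 over the 9 genes, against 0.27 between the arms. Over all genes PBS replicate 2 was higher in 47.2%, with a median of -0.029. PBS replicate 1 was the lowest of the 6 arrays in 7 of the 9 genes (share of all genes not counted). PBS replicate 2 was above every rHuEPO array in 3 of the 9, Ank1, Epb42 and Tmod1 (share of all genes not counted). Leaving that array out, which by construction lets Ank1, Epb42 and Tmod1 join Sptb and Add2, gave 5 members with the groups apart, and 9.74% of all genes had this order with 3 against 2 arrays.

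**Figure D3:**
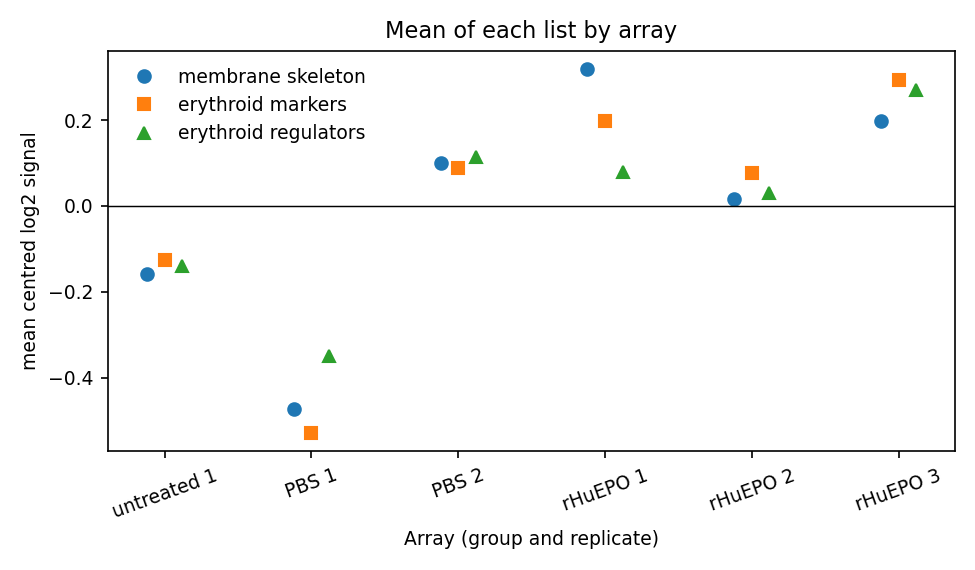
Mean log2 signal of 3 gene lists on each array (x axis: group and replicate), after each gene was centred on its mean over the 6 arrays (y axis, log2). The membrane skeleton genes run from -0.47 in PBS replicate 1 to 0.32 in rHuEPO replicate 1, and the erythroid markers from -0.53 to 0.29, with PBS replicate 1 lowest in each list.

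The erythroid marker list moved with the members. The mean centred value of its 11 genes was -0.13 in the untreated sample, -0.53 and 0.087 in the PBS samples, and 0.20, 0.076 and 0.29 after rHuEPO. For the 9 members the same quantity was -0.16, -0.47 and 0.099 in the controls and 0.32, 0.015 and 0.20 after rHuEPO. Both lists were lowest in PBS replicate 1, and in both PBS replicate 2 lay above rHuEPO replicate 2. Of the 11 erythroid markers 9 were above 0 and 3 separated the groups upwards, with a median of 0.37 and 0 called. Tfrc, the transferrin receptor, differed by 0.97 ± 0.19 (limma adjusted p = 0.431), Rhag by 0.87 ± 0.22 (0.624) and Klf1, the erythroid Krüppel-like factor, by 0.56 ± 0.26 (1.00). The globin genes Hba-a1 and Hbb-bt and the heme enzyme gene Alas2 differed by -0.013 ± 0.17, 0.017 ± 0.16 and -0.070 ± 0.28. The summed level of the 11 markers, which these bright genes dominate, ran from 1990 to 2331 times the array's 75th percentile signal after rHuEPO and from 2012 to 2279 in the controls. Scaled to the mean of these markers, a setting added after seeing the data that shifts the median of all genes to -0.39, Sptb and Add2 differed by 0.86 and 0.56 with the groups still apart, as 0.808% of all genes were in that direction, and the members' median was -0.11. The markers did not move by a shared amount, so this scaling does not measure erythroid cell number. The part of cell number in the members' differences was not tested.

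Markers of other marrow cells were followed as well. The median difference was 0.0084 over 11 neutrophil, -0.23 over 9 B cell, 0.13 over 8 T and NK cell, 0.31 over 9 monocyte and macrophage, -0.21 over 9 megakaryocyte and platelet and -0.20 over 10 stroma and endothelium genes, with 0 called in each list by limma and 0 at an unadjusted p under 0.05. The groups were apart upwards in 2 of the 9 monocyte and macrophage genes, the same share as among the members, and in 1 of the 8 T and NK cell genes. The mean centred value of the B cell markers ran from -1.40 in PBS replicate 1 to 1.03 in PBS replicate 2, with -0.31 to 0.15 after rHuEPO. That of the megakaryocyte markers ran from -1.22 in rHuEPO replicate 1 to 0.87 in rHuEPO replicate 2, with -0.032 to 0.26 in the controls. That of the stroma markers ran from -0.86 to 0.81 in the controls and from -0.31 to 0.39 after rHuEPO, and that of the T and NK cell markers from -0.25 to 0.12 and from 0.024 to 0.11. Their part in the members' values was not tested.

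**Figure D4:**
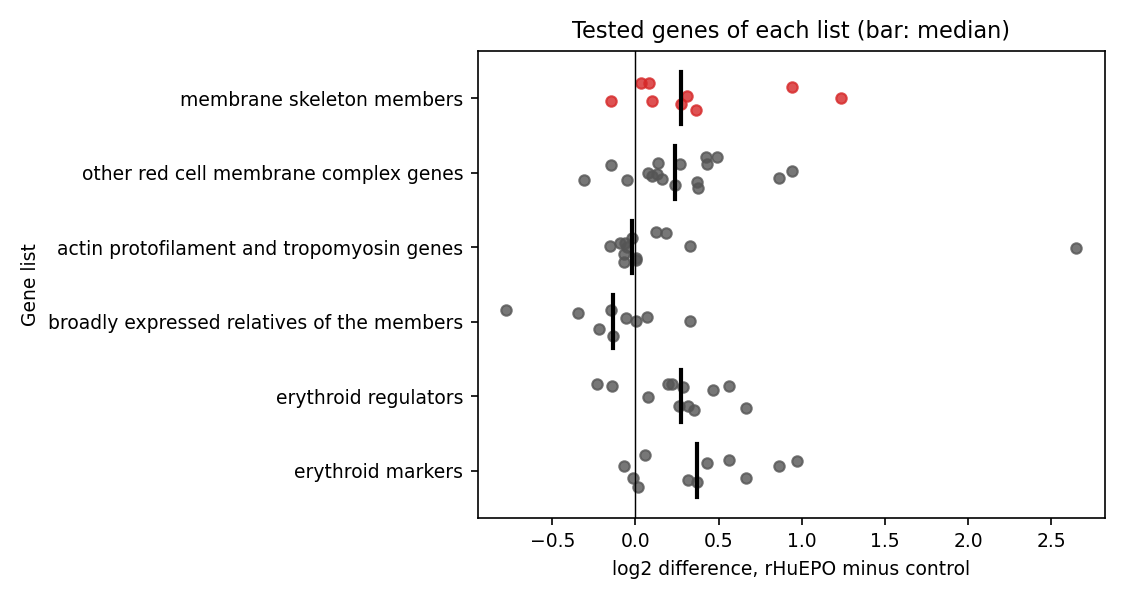
Log2 difference, rHuEPO minus control (x axis), of every tested gene of 6 lists (y axis), with a bar at each list's median; vertical scatter only separates points. The medians are 0.27 for the 9 membrane skeleton genes, 0.24 for other membrane complex genes, -0.019 for actin and tropomyosin genes, -0.13 for broadly expressed relatives, 0.27 for erythroid regulators and 0.37 for erythroid markers.

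Other proteins of the red cell membrane complexes were read by 17 genes of a list of 19. Of these 14 were above 0, 4 separated the groups upwards and 0 passed, with 2 at an unadjusted p under 0.05 and a median of 0.24. Gypc, glycophorin C, which holds protein 4.1 at the junctional complex, read 2.77 in the untreated sample, 2.44 and 3.14 in the PBS samples, and 3.81, 3.48 and 3.90 after rHuEPO. The groups were apart, with a difference of 0.94 ± 0.23 (limma adjusted p = 0.596). Rhag, the Rh-associated glycoprotein, read 1.08, 0.83 and 1.5 in the controls and 1.83, 2.05 and 2.12 after rHuEPO, again apart. Cldn13, a claudin of mouse erythroid cells, differed by 0.49 ± 0.22, with the groups apart, and Tspo2, a membrane protein of erythroid cells, by 0.42 ± 0.27, with overlap (limma adjusted p = 1.00 for each).

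The actin protofilament list had 13 tested genes, 6 above 0 and 7 below, with a median of -0.019. Plek2, a pleckstrin family protein of the erythroblast actin cytoskeleton, was its 1 called gene. It read -2.93 in the untreated sample, -2.72 and -2.56 in the PBS samples, and 0.21, -0.47 and 0.00 after rHuEPO, and rose by 2.65 ± 0.23 (adjusted p by limma 0.0212, or 0.0394 when slides were blocked). The call ended when any 1 of the 6 arrays was left out, with adjusted p from 0.0562 to 0.132 by limma, while the difference stayed between 2.50 and 2.84. Actb and Myh9, the next 2 genes by p, cytoplasmic beta-actin and non-muscle myosin heavy chain, differed by 0.33 ± 0.30 and 0.18 ± 0.21 (limma adjusted p = 1.00 for both).

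Relatives of the members that are made in many tissues gave 9 tested genes of 18, with 3 above 0, 6 below, 1 with the groups apart and 0 called (0 at an unadjusted p under 0.05), and a median of -0.13. Ank3, ankyrin-G, differed by -0.78 ± 0.56, a value of -0.15 without rHuEPO replicate 1, -0.48 without PBS replicate 1 and -1.28 without rHuEPO replicate 2. Epb41l2, a protein 4.1 relative, differed by -0.22 ± 0.26, and Sptbn1, a non-erythroid beta-spectrin, by -0.13 ± 0.16 (limma adjusted p = 1.00 for all 3). Sptbn1 read 3.81, 4 and 3.83 in the controls and 3.64, 3.79 and 3.8 after rHuEPO, apart in the opposite order to Sptb, though with normexp background correction its difference was 0.36. Of 12 tested erythroid regulators 10 were above 0, with a median of 0.27, 0 groups apart, 0 called and 0 at an unadjusted p under 0.05. Besides Klf1, the transcription factor gene Gata1 differed by 0.66 ± 0.34, its cofactor gene Zfpm1 by 0.47 ± 0.25, the receptor gene Epor by 0.32 ± 0.24 and the cell cycle factor gene E2f2 by -0.23 ± 0.19 (limma adjusted p = 1.00 for each).

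Against the PBS samples alone, with all 6 arrays sharing 1 estimate of the spread, 0 members passed (limma; 0.0202% of all genes did), and 2 had an unadjusted p under 0.05, Sptb and Add2, where 3.99% of all genes did. Their differences were 1.30 ± 0.25 (limma adjusted p = 0.575) and 0.96 ± 0.26 (1.00), and Ank1 was at -0.16 ± 0.26. In the untreated sample against PBS, which shares the PBS arrays, 0 members passed and 0 had an unadjusted p under 0.05 (limma; 0% and 5.39% of all genes). Sptb differed there by 0.20 ± 0.33 and Add2 by 0.050 ± 0.35, and the member farthest from 0 was Ank1 at -0.58 ± 0.35 (limma adjusted p = 0.675). With 1 untreated array, its spread is taken from the other groups.

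**Figure D5:**
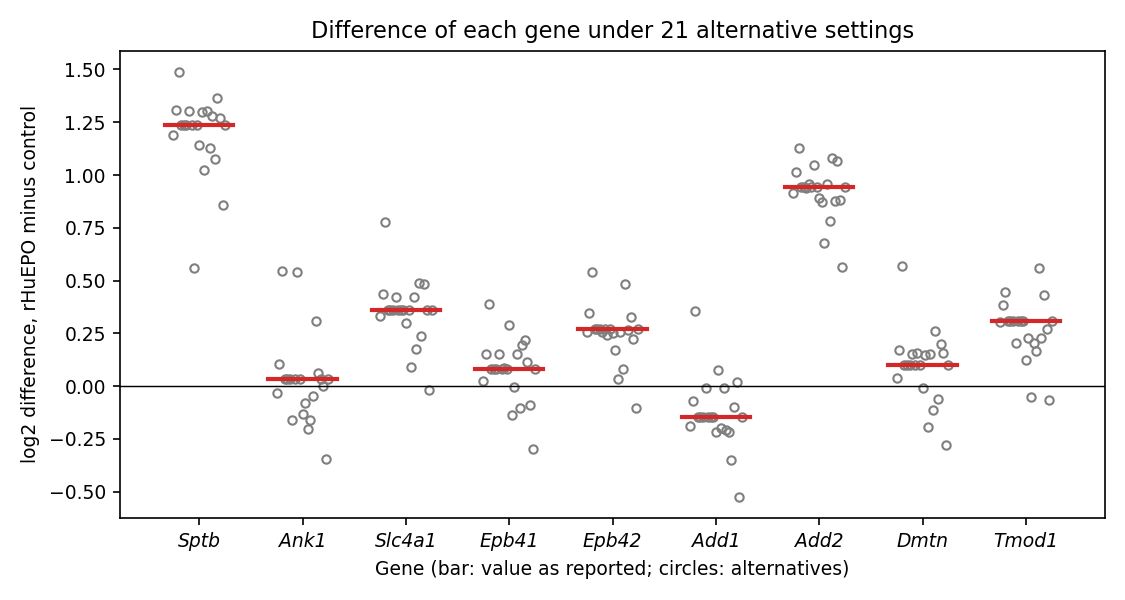
Log2 difference, rHuEPO minus control (y axis), of each gene (x axis) as reported (red bar) and under 21 alternative settings of processing or arrays (circles). Sptb stays between 0.56 and 1.49 and Add2 between 0.56 and 1.13, while circles of the other 7 genes fall on both sides of 0, for Slc4a1 and Epb42 only through the scaling to erythroid markers, which moves all genes down.

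Across the 21 alternative settings Sptb and Add2 kept their direction, with a difference of 0.56 to 1.49 and 0.56 to 1.13 (limma adjusted p from 0.100 to 1.00 and 0.160 to 1.00). The low value of Sptb came from averaging its 3 probes. Of the other 7 genes Slc4a1 and Epb42 changed sign only when scaled to the erythroid markers, which moves all genes down. Ank1, Epb41, Dmtn and Tmod1 changed sign there and in at least 1 other setting. Add1 kept its sign there, but was at 0.35 with normexp, 0.074 with the replicate block and 0.018 without rHuEPO replicate 3.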

How the data were processed

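Total RNA (500 ng) was amplified with Cy3 labelling for Agilent arrays read in 1 colour, per the labels' protocols. The deposited scanner output gives a processed intensity for each spot, background-subtracted per the file headers, which name Feature Extraction 10.7.3.1. The deposited value table is in log2, and no source used here states its scaling. Differences between its columns followed the scanner values (slope 1; the median probe was off by 0.0177 at worst), which settles its scale and direction. Its column medians were -0.104 (untreated), -0.0571 and -0.0978 (PBS), and 0.117, 0.0112 and 0.0868 (rHuEPO).

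From the scanner files, log2 processed signals minus each array's 75th percentile were computed, leaving out 1639 control spots and outlier spots, with spots of 1 probe averaged. Saturation was seen in 0 gene spots. Probes were tested if well above background on at least 3 of 6 arrays (19590 probes), and a gene was its brightest tested probe (14853 genes). Probes were named by unversioned accession through RefSeq (GRCm38.p6), which named 26690 of 41174 probes (64.82%). Coordinates of the array design are of another build and not used here, and promoter sequences are RefSeq's. Tests used limma 3.58.1 in R 4.3.3 (eBayes after lmFit, two-sided, with Benjamini-Hochberg adjusted p), first tested on simulated data, with 3-group fits for comparisons with PBS. Members, lists (Plek2 among them) and tests were chosen with earlier results of these data known. The genes named are all members and, per list, the 5 (membrane complexes, erythroid regulators) or 3 (others) with the smallest p. That rule also covers the other marker lists, but after the results were seen these were given by counts and medians alone. Single list genes quoted outside that rule are Hba-a1, Hbb-bt and Alas2. A gene that the rule picks is not reported here. Normexp (offset 50) used median signals, since the files carry no mean signals. Alternatives were other scalings, background corrections, filters, controls, priors, probe rules, blocks, weights and each array left out.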

Additional observations from a re-analysis of the deposited data

How the results depend on the processing

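Of the members 0 were called in any of the 21 alternatives, and Sptb and Add2 kept their direction in all of them. Calls over all genes numbered 10 as reported, 1 with normexp, 1 with no filter, 5 with a filter on all 6 arrays, 3 against PBS only, 3 on slide 2, 26 with array weights and 1 to 6 with an array left out. The replicate numbers are not stated to mark a shared source, and same-numbered samples deviated with r of 0.634, -0.375 and 0.145. With the replicate block 1 gene was called, and Ank1, Epb41 and Add1 stood at -0.079, -0.14 and 0.074. The members' median of 0.27 became 0.54 with normexp (all genes 0.072) and -0.0032 with array weights. It was -0.11 with scaling to the erythroid markers, which was chosen after seeing the data, and 0.080 to 0.48 with an array left out. Normexp also moved genes outside the members, Myh9 from 0.18 to 0.56 and Sptbn1 from -0.13 to 0.36, but Actb from 0.33 to -0.029. Members with groups apart numbered 2 as reported. They numbered 5 with normexp, all higher, as were 6.92% of all genes. With the mean of all tested probes they were 3, Sptb, Ank1 and Add2, all higher, as were 5.08% of all genes. With erythroid scaling they were 4, 2 of them lower, as were 20.9% of all genes, since that scaling moves every gene down. With an array left out, 2 to 5 members were apart, where 6.09% to 15.4% of all genes were apart upwards and 7.55% to 12.4% downwards. Of those members Add1 alone was lower, without rHuEPO replicate 1. Add1 was also apart downwards on slide 2 only, as were 18.2% of all genes. Differences that changed sign were as follows, and the cause was not tested. With erythroid scaling Ank1 was at -0.34, Slc4a1 at -0.017, Epb41 at -0.30 (second probe -0.29), Epb42 at -0.11 (-0.16), Dmtn at -0.28 (-0.17), Tmod1 at -0.068, Actb at -0.051, Epor at -0.063 and Myh9 at -0.20. With array weights Ank1 was at -0.20, Epb41 at -0.0032 (second probe -0.11), Dmtn at -0.19 (-0.079), Tmod1 at -0.052, the second Epb42 probe at -0.096, the third Sptb probe at 0.024, Actb at -0.069 and Ank3 at 0.076. With normexp Add1 was at 0.35, Actb at -0.029, E2f2 at 0.26, Epb41l2 at 0.15, Sptbn1 at 0.36 and the fifth Ank1 probe at -0.096. Ank1 was at -0.031 with quantile scaling, -0.16 against PBS only and -0.13 on slide 2, where Dmtn was at -0.0065. Myh9 was at -0.0052 against PBS only. With an array left out Ank1 ran from -0.16 to 0.31, Epb41 from -0.10 to 0.22 (second probe -0.36 to 0.49), Add1 from -0.35 to 0.018, Dmtn from -0.12 to 0.26, the second Epb42 probe from -0.081 to 0.37 and Myh9 from -0.0052 to 0.34. Plek2's call also ended with normexp (1.02), no filter, PBS only, slide 2 only and the replicate block, with adjusted p by limma from 0.0593 to 0.711.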

Other observations

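The genes whose pattern over the 6 arrays lay nearest to the members' mean pattern were Utp25, Kcnn4, Cachd1, Exosc1, Carm1 and Vars. Likeness was the root mean square difference between centred log2 values over the 6 arrays, among the 10998 tested genes left after members, genes with no symbol and clone or predicted entries were taken out. It was 0.0524 for Utp25 and 0.0774 for Vars, where the median gene was at 0.375. Utp25 read -0.11 in the untreated sample, -0.56 and 0.13 in the PBS samples, and 0.33, 0.061 and 0.15 after rHuEPO, against -0.16, -0.47, 0.099, 0.32, 0.015 and 0.20 for the members' mean. All of these arrays were also used to pick the genes, so the values are a description.

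Between members the pattern was closest for Epb42 and Tmod1, which differed by 0.124 on the same measure, followed by Slc4a1 and Dmtn at 0.148. Sptb and Add2 differed by 0.208. The pair farthest apart was Sptb and Add1, at 0.712.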
